A study of Mus musculus with 18 samples.

Results

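Small leucine-rich proteoglycans and dermatopontin are matrix proteins that bind collagen fibrils, and their transcripts were followed on 18 bead arrays of mouse stromal cultures, with and without embryonic stem (ES) cells on top. The members are 10 genes: FMOD, DCN, LUM, BGN, OGN, ASPN, PRELP, OMD, ECM2 and DPT. They were chosen by name with earlier results of these data known, and all are reported whatever their values. They have 17 of the 45281 probes on the array, between 1 and 4 per gene. A probe was kept if its detection p, which compares it with the negative control beads of its own array, was under 0.05 on at least 3 arrays. This left 16 of the 17 member probes and 22987 probes in all, so that 9 of the 10 members are among the 16446 genes tested. ECM2 has 1 probe, which was detected on 0 arrays and lay between an intensity of 77.1 and 156. FMOD and ASPN were kept through PA6 arrays without FGF2 only, and were detected on no co-culture array and on no FGF2 array.

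The study asked which signals lead ES cells toward endothelium under FGF2 or BMP4, and which of them pass through the stroma. ES/PA6 co-cultures are murine ES cells, by the study's methods a τ-EGFP knock-in whose τ promoter drives a green fluorescent protein, seeded on the bone marrow stromal line PA6. PA6 mono-cultures are the same stroma without ES cells. Both culture types were kept in serum-free medium for 3 days. The medium held no growth factor (-GFs), 20 ng/ml of FGF2 or 10 ng/ml of BMP4, which makes 6 groups of 3 replicates. All groups lack serum, and PA6 is a single line, so that every value of the mono-cultures comes from 1 genetic background. Replicates are separate wells. In the co-cultures the labels describe 1 well per condition for each biological replicate, and deviations of same-numbered arrays correlated at 0.325 to 0.521. The p-values come from a fit without this pairing. They set a change against 1 spread per gene, pooled over the replicate arrays of all 6 groups. That spread can be smaller than the spread of the groups compared. For ASPN the standard deviation on the log2 scale was 0.69 in PA6 -GFs and 0.12 to 0.16 in the groups without detection.

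The small leucine-rich proteoglycans share a core of leucine-rich repeats, to which most members add chondroitin, dermatan or keratan sulfate chains. They lie on collagen fibrils and set their diameter and spacing, and several hold growth factors of the TGFβ family in the matrix. Fibroblast-like stromal cells of connective tissue and bone marrow are a main source of them. Dermatopontin, the product of DPT, is not a proteoglycan but binds decorin, the product of DCN, and promotes fibril formation.

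Between 17125 and 20412 probes were detected per array. The 10 markers of stromal cells (among them COL1A1, PDGFRB and THY1) were detected on all arrays of every group, and their summed normalized intensity was 120620 to 145840 in PA6 cells alone against 44110 to 62804 with ES cells. The 10 markers of ES cells were all detected on every co-culture array, where they summed to 86050 to 137800, against 432 to 597 in the mono-cultures. Of the markers of tendon, cartilage and bone, tissues that also use these proteoglycans, SCX, TNMD, THBS4, ACAN, MATN1, RUNX2, IBSP and DMP1 were detected on 0 mono-culture arrays. In each PA6 group 1 of the 4 tendon markers, 2 or 3 of the 5 cartilage markers and 1 of the 6 bone markers were detected on all arrays, and the cartilage markers summed to 19611 to 25599.

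In PA6 cells without growth factors the members covered the whole range of the array. Intensities of a bead array top out near the highest value seen, 72879, and 88 to 160 probes per array exceeded 50000. BGN, encoding biglycan, was between 55425 and 67576 on all 18 arrays, where differences cannot be read so close to the top. DCN in all PA6 groups and OGN in PA6 cells without FGF2 were near the top too, and PRELP exceeded 50000 on 2 of the 3 PA6 -GFs arrays. On the 3 PA6 -GFs arrays DCN read 63180, 58515 and 63537, OGN read 60272, 59967 and 59117, and PRELP read 55928, 47936 and 51832. FMOD read 1377, 1196 and 1497, OMD 982, 911 and 616, LUM 760, 366 and 878, and DPT 506, 411 and 476. ASPN, at 241, 170 and 156, was detected on 2 of these 3 arrays. Probes of different genes hybridise with different strength, so that these readings order arrays within a gene and not genes.

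**Figure D1:**
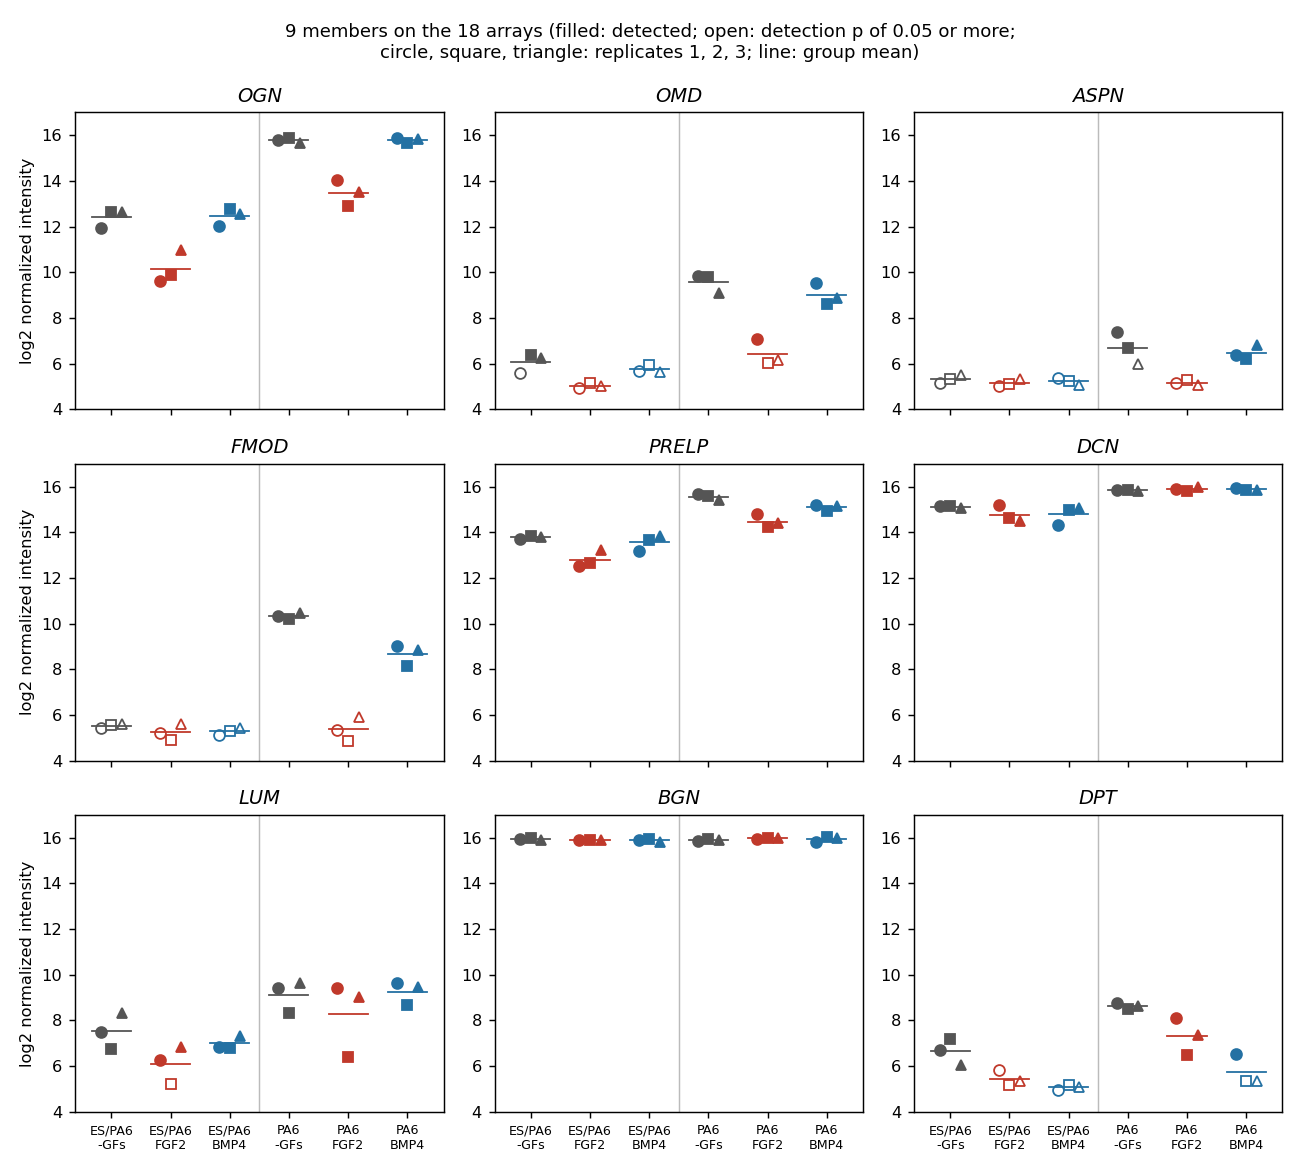
Log2 normalized intensity (vertical axis) of the 9 tested members in the 6 groups (horizontal axis), 1 point per array and 3 arrays per group, with the line at the group mean and open points where the probe was not detected. OGN and PRELP lie lower under FGF2 in both culture types, FMOD and OMD fall to or near the detection limit under FGF2 in PA6 cells, and BGN stays at the top of the scale everywhere.

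Of the 10 members, 8 lie next to another member in the GRCm38.p6 annotation: Ecm2, Aspn, Omd and Ogn follow each other on chromosome 13, Dcn and Lum on chromosome 10, and Prelp and Fmod on chromosome 1. Dpt lies elsewhere on chromosome 1 and Bgn on the X chromosome. RefSeq promoter windows, from 250 bases before to 50 bases after the start of a gene, were at hand for 8 of the 10 members. Dcn and Lum are named only. The upstream 250 bases of Ogn, Omd and Dpt are shown only because their windows share a run of letters, in capitals (GRCm38.p6, 5′ to 3′).
Ogn promoter (chr13:49607765-49608014, plus strand): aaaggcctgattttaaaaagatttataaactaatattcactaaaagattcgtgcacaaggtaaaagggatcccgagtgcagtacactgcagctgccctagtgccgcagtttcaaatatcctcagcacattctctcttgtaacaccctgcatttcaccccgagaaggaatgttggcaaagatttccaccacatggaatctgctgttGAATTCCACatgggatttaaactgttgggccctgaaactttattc
Omd promoter (chr13:49582212-49582461, plus strand): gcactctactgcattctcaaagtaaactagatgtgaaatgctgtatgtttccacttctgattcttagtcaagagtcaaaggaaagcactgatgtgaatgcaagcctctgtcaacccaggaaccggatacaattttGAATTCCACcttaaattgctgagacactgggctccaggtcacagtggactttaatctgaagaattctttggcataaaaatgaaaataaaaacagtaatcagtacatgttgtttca
Dpt promoter (chr1:164796413-164796662, plus strand): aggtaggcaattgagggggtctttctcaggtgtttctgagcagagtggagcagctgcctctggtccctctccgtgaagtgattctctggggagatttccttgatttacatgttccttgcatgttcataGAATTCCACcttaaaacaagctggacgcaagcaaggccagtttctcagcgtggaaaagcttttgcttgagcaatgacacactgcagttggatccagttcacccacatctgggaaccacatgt
The run GAATTCCAC starts at position -45 of Ogn, -115 of Omd and -122 of Dpt, counted from the start site. Searched on both strands, it is in 3 of the 8 member windows and in 60 of 32851 windows of the same length, a share of 0.183%. Omd and Dpt share a longer run, GAATTCCACCTTAAA, which these windows alone hold (2 of 32851). The run was noticed on reading these member sequences, so that its count among them is no test. It describes a string and not a binding site. OGN, OMD and DPT were called lower with FGF2 in both culture types, OMD and DPT from near the detection limit in the co-cultures. PRELP, whose window lacks the run, was lower with FGF2 too (log2 fold change -1.08 in PA6 cells and -0.97, short of the fold limit, in co-cultures). Of 4 known elements looked for, TATAAA was in 3 of 8 member windows (ASPN, DPT and OGN) and in 13.6% of all windows, GGAATG, the core of TEAD elements, in 1 of 8 (OGN) and in 14.7%, TGANTCA, the AP-1 site, in 0 of 8 and in 7.81%, and GGCGCC, bound by SMAD proteins, in 0 of 8 and in 11.9%. None of these matches overlaps GAATTCCAC, and no match says only that these letters are not in this window.

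FGF2 lowered most of the family in PA6 mono-cultures. Calls follow the limits of the study's methods, a log2 fold change beyond 1 in either direction with an adjusted p under 0.1. By that rule 6 of the 9 tested members fell with FGF2 and 0 rose, beside 2.56% of all tested genes called lower. The log2 fold changes of the 9 members had a median of -1.32, against -0.01 over all tested genes. Of the 10 stromal markers 3 fell by the same rule and 0 rose, with a median of -0.48. The arrays of both groups did not overlap in those same 6 members, a separation with FGF2 lower that 17.5% of tested genes showed. FMOD and ASPN, among these 6, passed the detection filter only through PA6 arrays without FGF2, where they were high. They could therefore hardly have been called the other way, and the counts and the median lean on the filter in part.

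The 3 tested neighbours on chromosome 13 were among them. OGN encodes osteoglycin, a small proteoglycan first isolated from bone. It read 19645, 6958 and 11281 on the FGF2 arrays, all far below the -GFs arrays. OGN fell by 2.29 on the log2 scale (SE 0.33, adjusted p = 0.000145), from a -GFs level at the top of the range. Its dimmer probes, which read 5267 to 5821 and 860 to 1905 on the -GFs arrays, gave changes of -3.01 and -2.14. OMD encodes osteomodulin, a keratan sulfate proteoglycan of mineralized tissue. It went from 616 to 982 on the -GFs arrays to 241, 131 and 149 with FGF2, which left it detected on 1 array of 3. OMD fell by 3.16 (SE 0.29, adjusted p = 2.27e-06), a fold of 8.95. ASPN encodes asporin, which binds TGFβ and lacks a glycosaminoglycan chain. It read 123, 104 and 104 with FGF2 and was detected on none of those arrays. The call of ASPN (log2 fold change -1.52, SE 0.25, adjusted p = 0.000539) therefore carries a bound, at least 1.35-fold lower. It was lost with quantile normalization (-0.84), with a cubic spline (-0.84) and with an offset of 50 (-0.99), and the call of DPT with the first pair of these (-0.91 each).

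FMOD had the largest change of the 9 members in this comparison. It encodes fibromodulin, which organises collagen fibrils and guides their cross-linking. Its intensity with FGF2 was 134, 77.3 and 141, and it was detected on none of those 3 arrays. Against the 1377, 1196 and 1497 of the -GFs arrays, FMOD was at least 16.8-fold lower (log2 fold change -4.97, SE 0.25, adjusted p = 5.54e-09). Its other probe, at 323 to 473 without growth factors, was also lost with FGF2 (log2 fold change -3.45). PRELP, its neighbour, encodes a proline- and arginine-rich protein that links basement membranes to collagen. It read 33494, 16886 and 21201 with FGF2, with no overlap with the -GFs arrays. PRELP fell by 1.08 (SE 0.20, adjusted p = 0.00131), from -GFs readings near the top of the range on its only probe. DPT read 397, 150 and 216 with FGF2 and fell by 1.32 (SE 0.37, adjusted p = 0.0255). Without PA6 FGF2 replicate 2, the array with the lowest reading of both genes, PRELP gave a change of -0.95 (adjusted p = 0.0103) and DPT of -0.90 (adjusted p = 0.148), and neither was called.

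**Figure D2:**
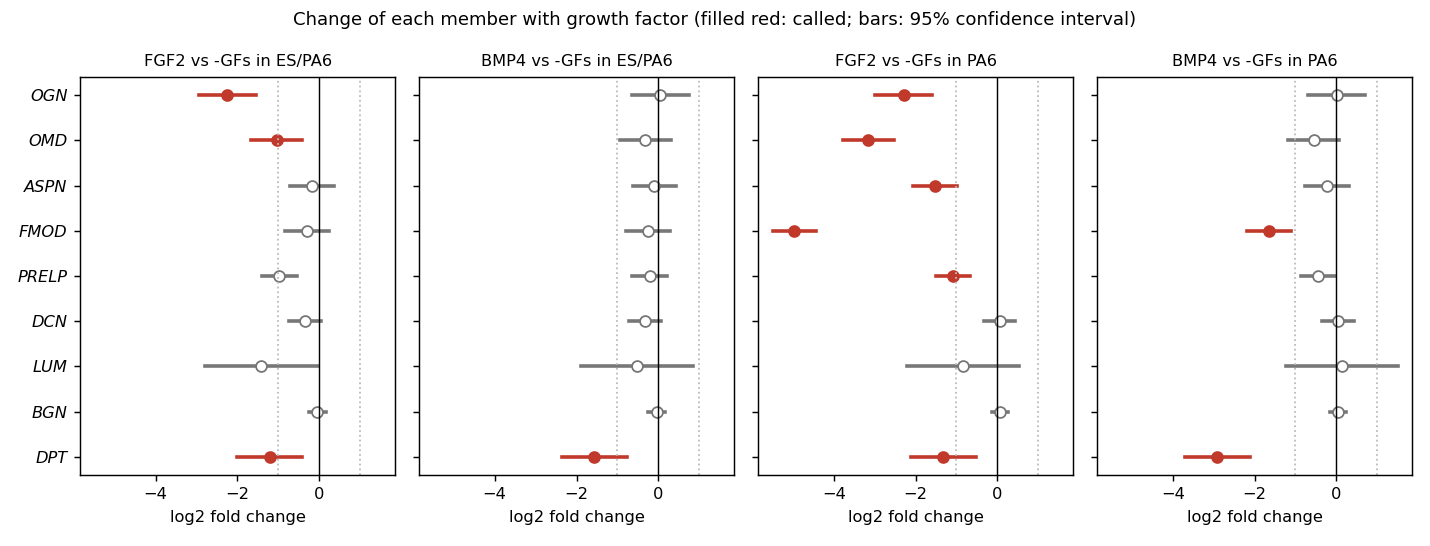
Log2 fold change of the 9 tested members (horizontal axis, bars for the 95% confidence interval) against -GFs, for FGF2 and BMP4 in both culture types, with filled red points for called genes and dotted lines at a log2 fold change of -1 and 1. All 12 calls in the panels lie left of 0.

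The 3 members left were not called, and 2 of them cannot be read at their brightest probe. BGN stayed between 61808 and 66745 with FGF2. DCN has 4 probes, and the brightest, which stands for the gene, read 63711, 52118 and 65820 with FGF2, with a log2 fold change of 0.06 (95% confidence interval -0.33 to 0.44). Its dimmer probes gave lower values the further they were from the top. The probe at 46113 to 58339 without growth factors gave -0.29, the probe at 11972 to 19898 gave -0.95 (adjusted p = 0.00858, short of the fold limit), and the probe at 1688 to 1937 gave -1.14 (adjusted p = 0.0133), which was called in a fit of all kept probes. On that last probe the FGF2 arrays read 1471, 590 and 639, all below the -GFs arrays. LUM, the gene of lumican, read 851, 145 and 516 with FGF2. These overlap the 366 to 878 of the -GFs arrays, and the spread between FGF2 replicates (SD 1.65 on the log2 scale) exceeded the change (-0.85, adjusted p = 0.473).

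**Figure D3:**
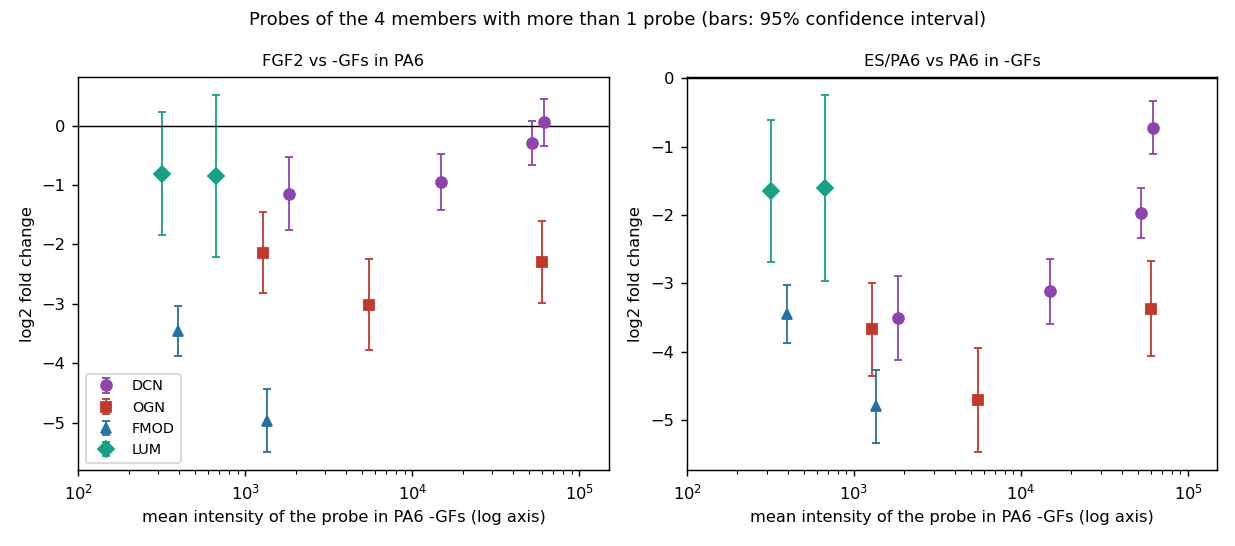
Log2 fold change of each probe (vertical axis, bars for the 95% confidence interval) against its mean intensity on the PA6 -GFs arrays (horizontal log axis) for the 4 members with more than 1 probe, for FGF2 in PA6 mono-cultures (left) and for co-cultures against mono-cultures without growth factors (right). The DCN probes give changes from 0.06 to -1.14 on the left and from -0.72 to -3.51 on the right, with the smallest change at the brightest probe.

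The FGF2 replicates of PA6 cells were not alike. Replicate 1 was the highest of the 3 FGF2 arrays for 5 of the 9 members and replicate 2 the lowest for 7. The BMP4 arrays of PA6 cells had the same order, with replicate 1 the highest for 7 members and replicate 2 the lowest for 7. The -GFs arrays of PA6 cells did not share it in full. There replicate 1 was the highest for 5, but replicate 3 was the lowest for 5 and replicate 2 for 3. For LUM replicate 2 was the lowest in all 3 PA6 groups. The adipocyte markers, which PA6 cells can switch on as preadipocytes, moved with the treatments: their summed normalized intensity was 10695 to 13968 in PA6 -GFs, 2061 to 2189 with FGF2 and 27343 to 60217 with BMP4. Of the 8 adipocyte markers tested, 4 were called lower with FGF2, beside 2.56% of all tested genes. With BMP4 2 were called higher, a direction whose share over all genes is not given here. In the co-cultures the same sum was 2530 to 4880, 1856 to 2146 and 6603 to 28882, in that order. FABP4 and RETN were detected on no array. The part of this shift in the changes of the members was not tested.

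BMP4, set against the same -GFs arrays, lowered 2 of the 9 members in PA6 mono-cultures, beside 0.572% of all tested genes called lower, and raised 0. DPT, on 178, 117 and 125 with BMP4, was detected on 1 of the 3 arrays. It fell by 2.91 (SE 0.37, adjusted p = 0.000496). FMOD read 583, 372 and 625 and fell by 1.65 (SE 0.25, adjusted p = 0.00177), with -1.62 at its other probe. So FMOD stayed well detected with BMP4, where FGF2 took it below detection. PRELP, at 36181, 31597 and 37225, lay below its -GFs arrays but short of the limits (log2 fold change -0.44, SE 0.20, adjusted p = 0.354). Those 3 members did not overlap between the groups, as did 10.3% of tested genes with BMP4 lower. OGN at its brightest probe was at the top of the range in both groups, and its probe at 5267 to 5821 gave -0.36 (adjusted p = 0.815). OMD gave -0.56, ASPN -0.23 and LUM 0.14, none of them called.

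FGF2 and BMP4 were also compared with each other, on the same treated arrays. In PA6 cells 4 members were lower with FGF2 than with BMP4, beside 2.94% of tested genes: FMOD (at least 5.35-fold), OMD (log2 fold change -2.61), OGN (-2.30) and ASPN (-1.29, at least 1.15-fold). Of these, FMOD and ASPN passed the detection filter through no FGF2 array. The call of ASPN was lost with quantile normalization (-0.71), with a cubic spline (-0.71) and with an offset of 50 (-0.805). DPT was the 1 member higher with FGF2, beside 2.88% of tested genes (log2 fold change 1.60, SE 0.37, adjusted p = 0.00772), although the lowest FGF2 array lay below the highest BMP4 array. Its call was lost with quantile normalization (0.88) and with a cubic spline (0.89). PRELP missed the fold limit (-0.64, adjusted p = 0.0405). DCN showed 0.02 at its brightest probe, and its dimmer probes at 11972 to 19898 and at 1688 to 1937 without growth factors gave -1.23 and -1.49, both called among all probes. In the co-cultures OGN was lower with FGF2 than with BMP4 (-2.30, SE 0.33, adjusted p = 0.00061), the only member called, beside 1.03% of tested genes. DPT, detected on none of the 6 treated co-culture arrays, could not be ordered there.

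In the ES/PA6 co-cultures the members were dimmer before any treatment. Without growth factors 7 of the 9 were lower than in PA6 cells alone, beside 19.5% of tested genes called lower, with a median log2 fold change of -1.77 against -0.11 over all tested genes. The arrays did not overlap in 8 of the 9 members, as in 37.6% of tested genes. FMOD and ASPN, in both counts, passed the detection filter through PA6 arrays only and could hardly have been called the other way. FMOD, at 146, 136 and 141, was undetected in the co-cultures, at least 21.8-fold lower. OMD, at 157, 182 and 175, was 11.3-fold lower (log2 fold change -3.49), and OGN, at 4243, 6237 and 5872, gave -3.38 at its brightest probe, which is at the top of the range in PA6 cells. The dimmer OGN probes gave -4.71 and -3.67. DPT was lower by 4.01-fold and LUM, at 327, 208 and 396, by 3.05-fold. PRELP, at 14051, 13941 and 13610, gave a log2 fold change of -1.77 from PA6 readings near the top of the range. ASPN, undetected in the co-cultures, was at least 1.75-fold lower, a call lost with quantile normalization, a cubic spline or an offset of 50. Without ES/PA6 -GFs replicate 2 (adjusted p = 0.147) or PA6 -GFs replicate 3 (adjusted p = 0.121), the call of LUM was lost.

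The summed level of the 10 stromal markers was also lower in the co-cultures, and 9 of those 10 were called lower. Their median log2 fold change was -1.71, close to the -1.77 of the members. The 4 other small leucine-rich proteoglycans tested had a median of -1.76, with 3 called lower. In a mixed culture, fewer stromal cells and less RNA per cell cannot be told apart. DCN missed the fold limit at its brightest probe (-0.72, adjusted p = 0.00231), read from the top of the range. Its other probes gave -1.97, -3.12 and -3.51. Thus the fold of DCN depended on the probe. BGN read 62663 to 63564 in co-cultures without growth factors.

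FGF2 lowered 3 of the 9 members in the co-cultures, beside 1.2% of all tested genes called lower, and raised 0. The make-up of the cultures may have moved too. The ES cell markers summed to 86050 to 112170 without growth factors and to 121830 to 137800 with FGF2. The stromal markers summed to 44506 to 62804 and to 44110 to 46619, with 1 of the 10 called lower. The part of this in the changes of the members was not tested. OGN read 1001, 1040 and 2199 with FGF2 against 4243, 6237 and 5872 without. It fell by 2.26 (SE 0.33, adjusted p = 0.000495), and its other probes gave -2.17 and -1.38. At the brightest probe the difference between the culture types was 0.04 (95% confidence interval -0.95 to 1.02), with the PA6 fall read from the top of the range. The dimmer probes, undetected on the co-culture FGF2 arrays, gave differences of 0.85 (-0.23 to 1.93) and 0.76 (-0.20 to 1.72), neither of them called. OMD was detected on 2 of the 3 -GFs arrays and on none with FGF2 (108, 112 and 98.4), at least 1.15-fold lower (log2 fold change -1.04, adjusted p = 0.0461). DPT went from 238, 244 and 164, all detected, to 172, 112 and 120, none detected, at least 1.70-fold lower (log2 fold change -1.21, adjusted p = 0.0701). Leaving out 1 array at a time, OMD lost its call in 3 cases (without -GFs replicate 2 or 3, or FGF2 replicate 1) and DPT in 4 (without -GFs replicate 1 or 2, or FGF2 replicate 2 or 3).

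PRELP, at 6734, 6493 and 9651 with FGF2, lay wholly below its -GFs arrays in the co-cultures and was just short of the fold limit (-0.97, SE 0.20, adjusted p = 0.00684). OGN, PRELP, OMD and DPT were the 4 members without overlap, against 9.43% of tested genes with FGF2 lower. LUM read 203, 115 and 221 with FGF2 against 327, 208 and 396, a change of -1.41 (adjusted p = 0.263) that was not called. In each replicate LUM was lower with FGF2, by 1.20, 1.57 and 1.47 on the log2 scale, and with the replicate number as a block it was called (adjusted p = 0.0192). DCN at its brightest probe gave -0.35, and 1 of its 3 other probes was called, the one that read 1769, 1678 and 1559 without and 1110, 827 and 755 with FGF2 (log2 fold change -1.13, adjusted p = 0.00568). FMOD and ASPN were below detection in both groups and have no fold there.

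BMP4 lowered 1 of the 9 members in the co-cultures, beside 0.45% of all tested genes called lower, and raised 0. This was DPT, which read 107, 114 and 102 and was detected on none of the BMP4 arrays, at least 1.60-fold lower (log2 fold change -1.57, SE 0.37, adjusted p = 0.0654). DPT was the 1 member without overlap, as were 6.97% of tested genes with BMP4 lower. Its call was lost without any 1 of 5 of the 6 arrays (all but -GFs replicate 3), with adjusted p between 0.116 and 0.242. OGN, at 4464, 7405 and 5128, overlapped its -GFs arrays (0.05, 95% confidence interval -0.65 to 0.74). PRELP gave -0.21, DCN -0.33 and LUM -0.53, none of them called. OMD was detected on none of the BMP4 arrays (159, 169 and 135) and was not called. With BMP4 the ES cell markers of the co-cultures summed to 114050 to 127140 and the stromal markers to 45826 to 62748. The part of this in the change of DPT was not tested.

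Whether the FGF2 response differed between culture types was tested as an interaction. The contrast was called for 3 members, beside 3.99% of tested genes with a difference called in that direction: FMOD (4.67, adjusted p = 1.08e-06), OMD (2.13, SE 0.42, adjusted p = 0.00388) and ASPN (1.34, adjusted p = 0.0246). FMOD and ASPN were kept through PA6 arrays and were undetected in both co-culture groups, so no FGF2 change could be measured there and their contrast sets the PA6 fall against the floor. OMD, detected on 2 of 3 co-culture arrays without growth factors, was detected on none with FGF2, so that its co-culture change is a bound and a smaller response and a floor cannot be told apart. The call of ASPN was lost without PA6 -GFs replicate 1 (0.997), with quantile normalization (0.69), with a cubic spline (0.70) and with an offset of 50 (0.89). PRELP was detected on every array and gave a difference of 0.11, with an interval of -0.49 to 0.70 that allows either sign. Its PA6 fall was read from near the top of the range on its only probe. OGN gave 0.04 at its brightest probe, with the PA6 fall read from the top of the range. Its dimmer probes, undetected with FGF2 in the co-cultures, gave 0.85 and 0.76, neither called. DPT, undetected with FGF2 in the co-cultures, gave 0.11 (95% confidence interval -1.01 to 1.23).

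**Figure D4:**
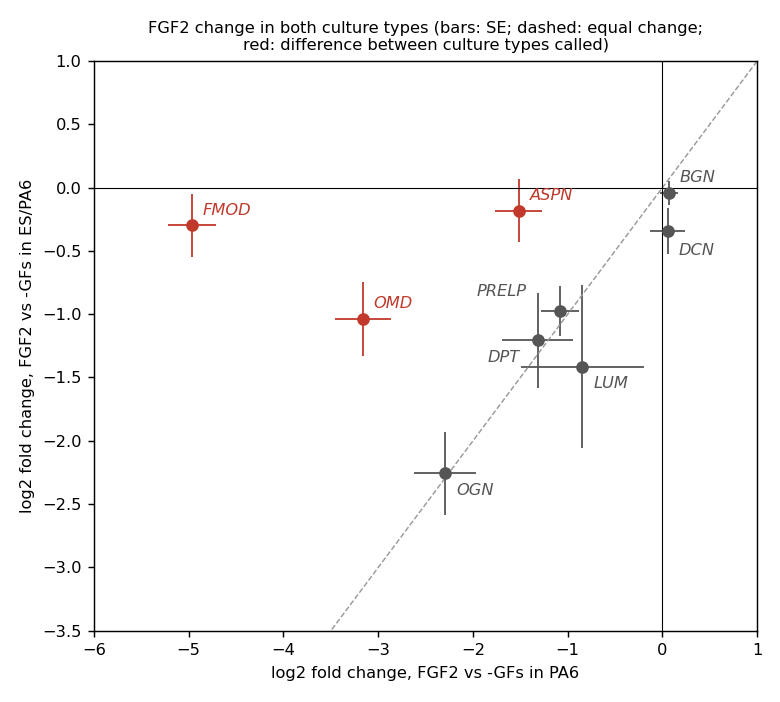
Log2 fold change with FGF2 in PA6 mono-cultures (horizontal axis) and in ES/PA6 co-cultures (vertical axis) for the 9 tested members, with bars for the SE, the dashed line at equal change and red where the difference between culture types was called. OGN (brightest probe), PRELP and DPT lie near the line, and DPT was undetected in the co-cultures with FGF2. FMOD and ASPN, undetected in the co-cultures, and OMD, undetected there with FGF2, lie off it.

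For BMP4 0 of the 9 members differed between culture types by limma, beside 0.559% of tested genes called in either direction. An unadjusted p under 0.05 was seen for 2 members and for 1602 of the 16446 tested genes. FMOD, undetected in the co-cultures, gave a difference of 1.40 (adjusted p = 0.123), and DPT one of 1.35 (adjusted p = 0.383). The other FMOD probe, undetected in the co-cultures too, gave 1.60 (adjusted p = 0.0241) and was called among all probes. With the replicate block FMOD was called (adjusted p = 0.0182).

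Several genes followed the members closely over the 18 arrays, once the mean of each culture type was taken off. The likeness is Pearson's r over arrays that share treatments, and is given as a description. OGN was most like GULP1 (r = 0.97), THBS1 (0.96) and MAML2 (0.95), and PRELP was most like THBS1 (0.95), KLF6 (0.93) and OGN itself (0.93). FMOD was most like TINAG (0.98), TNA (0.97) and SYNM (0.96). OMD was most like TNNT1 (0.96), CSK (0.95) and TMEM44 (0.95), and DPT was most like ZCCHC5 (0.97), the collagen gene COL1A2 (0.92) and LOC100047583 (0.91). For ASPN the closest were A230065C20RIK (0.90), ADARB1 (0.89) and WFDC3 (0.88). LUM was closest to EG625054 (0.85), THSD2 (0.83) and RSPO3 (0.82). DCN and BGN reached no more than 0.73 and 0.79 with any gene. Among the members, FMOD and OMD were alike at 0.91, FMOD and ASPN at 0.84, and FMOD and DPT at 0.27.

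Other genes of the same biology were taken from lists. Of the proteases that cleave small leucine-rich proteoglycans, 4 of 9 tested rose with FGF2 in PA6 cells and 0 fell, beside 2.71% of all tested genes called higher. The largest of these rises were in the stromelysin MMP3 (at least 6.23-fold) and the gelatinase MMP9 (log2 fold change 2.01). In the co-cultures 2 of the 9 rose with FGF2, MMP9 (1.82) and HTRA1 (1.50), beside 2.14% of all tested genes called higher. With BMP4 0 of the 9 were called in either culture type.

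Of the 19 tested core proteins of other proteoglycans, 4 rose and 1 fell with FGF2 in PA6 cells, beside 2.71% and 2.56% of all tested genes, the shares against which the further counts for FGF2 in PA6 cells stand too. VCAN, encoding the large proteoglycan versican, rose by 2.34 on the log2 scale, and PRG4, encoding lubricin, by 2.07. CSPG4, encoding NG2, was the 1 that fell (-1.19). With BMP4 in PA6 cells PRG4 rose by 1.07, and in the co-cultures ESM1 rose with FGF2 (at least 2.01-fold) and NCAN fell with BMP4 (at least 1.64-fold). With FGF2 in the co-cultures 2.14% of all tested genes were called higher and 1.2% lower. With BMP4 0.45% were called lower there and 0.572% in PA6 cells. The further counts stand against these shares too, and the share called higher with BMP4 is not given here. Of the other small leucine-rich proteoglycans 4 of 10 were tested. PODN, encoding podocan, was undetected in PA6 cells without growth factors and rose with FGF2 (at least 2.08-fold), and LRRC17 fell by 1.05.

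Of the fibrillar collagens and their partners 19 were tested: TNXB and ELN fell with FGF2 in PA6 cells (log2 fold changes -1.22 and -1.63) and COL3A1 and COL6A3 with BMP4 (-1.58 and -1.07), while ELN fell with FGF2 (-2.82) and COL3A1 with BMP4 (-1.16) in the co-cultures. Of the 17 tested genes of collagen processing and cross-linking, BMP1, the procollagen C-proteinase, was the 1 called with a growth factor (1.10, with FGF2 in PA6 cells). Enzymes that build the sugar chains were mostly uncalled. For chondroitin and dermatan sulfate 0 of 19 tested genes were called with either factor in either culture type. For keratan sulfate, the chain that FMOD, LUM and OMD can carry, 11 genes were tested: CHST2 rose with FGF2 in PA6 cells (at least 2.31-fold), CHST1 fell with FGF2 in the co-cultures (-1.50), and B4GALT4 (-1.04) and ST3GAL1 (-1.01) fell with BMP4 in PA6 cells. Of the 16 tested receptors and growth factors that bind these proteoglycans, CTGF rose (2.11) and MET fell (at least 1.13-fold) with FGF2 in PA6 cells, and the BMP4 transcript fell with BMP4 (-1.02).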

How the data were processed

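RNA of 18 cultures was labelled and hybridised by the authors to Illumina MouseWG-6 v2.0 arrays, with GenomeStudio 2011.01 named in the submitters' processing notes. The deposited intensity values are non-normalized, on a linear scale, each with a deposited detection p-value. A further 5 stray lines of the table were dropped. Groups, doses and day come from the labels. The study's methods give a lower BMP4 dose for slide cultures.

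Values were background corrected and quantile normalized with neqc (offset 16, limma 3.58.1, R 4.3.3) and taken to log2, where the study's methods name a cubic spline. The offset understates changes of dim probes. The kept probe of largest mean stood for a gene. A limma fit (lmFit, eBayes) of 6 group means on 18 arrays, with no replicate block, gave the 9 comparisons and all adjusted p-values (Benjamini-Hochberg over 16446 genes). Member probes were also fitted among all 22987 kept probes, a choice made after seeing the data. A fold with 1 group undetected on all arrays is a bound against the higher of the probe's value and the lowest detected value on each dim array.

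The members and lists were chosen with earlier results of these data known. All members are named, and of each list up to the 2 largest rises and falls among called genes. The fit was tested on simulated data. Deviations of same-numbered arrays correlated at 0.325 to 0.521 in the 9 pairs of co-cultures, whose labels describe 1 well per condition for each biological replicate, and at 0.0628 to 0.164 in those of mono-cultures. Arrays carry no counts, and 3 arrays per group limit the precision: a permutation of 3 against 3 gives no p below 0.1.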

Additional observations from a re-analysis of the deposited data

Results flagged for a closer look

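The interaction contrast of the FGF2 change between culture types was called for 3 members in the limma fit. The contrast, co-culture minus mono-culture on the log2 scale, was 4.67 for FMOD (adjusted p = 1.08e-06), 2.13 for OMD (adjusted p = 0.00388) and 1.34 for ASPN (adjusted p = 0.0246). FMOD and ASPN were detected on no co-culture array, so that their co-culture change could not be measured, and OMD was detected on 2 of 3 without growth factors and on 0 of 3 with FGF2. Groups of 3 arrays are too small for a test of single outlying arrays.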

How the results depend on the processing

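Of the 28 called results of members, 17 were called under every one of 15 other settings that kept the gene and with each array left out, and 0 reversed. The counts of called members moved as follows. With quantile normalization or a cubic spline, both without background correction, or with an offset of 50, 1 member was called for FGF2 in ES/PA6 co-cultures (3 in the fit above), 0 for BMP4 there (1) and 1 for the BMP4 difference between culture types (0), and the first pair gave 3 for FGF2 against BMP4 in PA6 cells (5). Under these settings FGF2 in PA6 cells gave 4, 4 and 5 calls (6), with ASPN lost in each and DPT in the first pair, and the loss of ASPN also took co-cultures against PA6 cells to 6 (7) and the FGF2 difference to 2 (3). Probes detected on all 18 arrays hold OGN, PRELP, DCN and BGN only, and gave 1, 0, 2 and 0 calls for FGF2 and BMP4 in co-cultures and in PA6 cells, 1 for FGF2 against BMP4 in PA6 cells, 2 for co-cultures against PA6 cells and 0 for the FGF2 difference. For BMP4 in co-cultures 0 members were called with no filter on dim probes, with only the arrays of the culture type or at an adjusted p under 0.05, and with no fold limit 2 were called for FGF2 against BMP4 in co-cultures. The mean of all probes and the replicate block each gave 1 for the BMP4 difference (FMOD). The block also called LUM with FGF2 in co-cultures and changed no other call of a member. With 1 array left out, the counts ranged from 1 to 3 for FGF2 and from 0 to 1 for BMP4 in co-cultures, from 4 to 6 and at 2 in PA6 cells, from 6 to 7 for co-cultures against PA6 cells and from 2 to 3 for the FGF2 difference. With probes that stay under an intensity of 50000, chosen after seeing the data, DCN for FGF2 against BMP4 in PA6 cells turned from 0.02 to -1.23 and was called. The cause of the other moves was not tested. Signal over background limits FMOD, ASPN, OMD and DPT in the co-cultures, and the top of the range limits BGN, DCN, OGN and PRELP.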
